A study of Mus musculus with 10 samples.

Results

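Imprinted genes are expressed from 1 parental copy, and 34 of them were followed here in mouse embryonic cortex, taken at embryonic day 12, out of 24814 genes in the deposited expression table. They were chosen by name, from genes known to be imprinted in the mouse, and not by a rule on measured values. Earlier results of these data were known when the choice was made. The cKO (conditional knockout) embryos carried the Emx1-Cre driver and a floxed Zbtb7a on both chromosomes, and the WT embryos carried the same driver and wild-type Zbtb7a on both chromosomes. Emx1-Cre acts in progenitors of the dorsal telencephalon, so blood, vessel and mesenchyme cells in a dissection keep an intact Zbtb7a. There were 5 libraries of polyadenylated RNA per genotype, each labelled as 1 animal, and 3 litters, which the labels name as the batch. Litter 3 gave cKO 4, WT 3 and WT 4, litter 5 gave cKO 5 and WT 5, and litter 1 gave cKO 1, cKO 2, cKO 3, WT 1 and WT 2. Parental alleles were not resolved, so a level here is the sum over both copies of a gene. The comparison asks which transcripts differ in the early cortex when Zbtb7a, which encodes a zinc finger repressor of transcription, is deleted.

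Imprints are DNA methylation marks that differ between egg and sperm and are kept after fertilisation, when the KRAB zinc finger protein ZFP57 with TRIM28 and the DNA methyltransferases guards them. Many imprinted genes sit in clusters in which a non-coding RNA from one parental copy is paired with growth genes from the other. In the embryo they are known for their effect on growth, with paternally expressed genes such as Igf2 promoting it and maternally expressed genes such as H19, Cdkn1c and Igf2r restraining it. In the brain several of them, among them Ube3a, Snrpn, Magel2 and Ndn of the region affected in Prader-Willi and Angelman syndromes, are best known from neurons.

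Promoter sequences are shown as examples for Mest, Plagl1 and Grb10, which differed between litter 3 and litter 1 in the tests below. Each has a window with the hexamer TGCCGC, the sequence that ZFP57 binds when its CpG is methylated. Igf2 and Snrpn also differed between these litters and have such a window. The differences of Mest, Grb10 and Snrpn did not hold without some single libraries. A link between the hexamer and the litter was not tested. Mest has 3 windows and Grb10 has 2, and 1 window of each holds no match; for both a window with a match is shown. Each run is the RefSeq promoter window of 250 bases before to 50 after an annotated start, written 5′ to 3′ on the gene's strand, build GRCm38.p6, in lower case with TGCCGC or its reverse complement GCGGCA in capitals. Mest lies on chromosome 6 (chr6:30737800-30738099, plus strand), Plagl1 on chromosome 10 (chr10:13090582-13090881, plus strand) and Grb10 on chromosome 11 (chr11:12037371-12037670, minus strand).
Mest: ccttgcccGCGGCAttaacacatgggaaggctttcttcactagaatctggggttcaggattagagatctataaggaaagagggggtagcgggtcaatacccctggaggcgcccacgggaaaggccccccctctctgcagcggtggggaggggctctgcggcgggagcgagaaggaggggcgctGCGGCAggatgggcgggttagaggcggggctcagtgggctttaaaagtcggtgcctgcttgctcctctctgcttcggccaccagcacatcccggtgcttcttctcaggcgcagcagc
Plagl1: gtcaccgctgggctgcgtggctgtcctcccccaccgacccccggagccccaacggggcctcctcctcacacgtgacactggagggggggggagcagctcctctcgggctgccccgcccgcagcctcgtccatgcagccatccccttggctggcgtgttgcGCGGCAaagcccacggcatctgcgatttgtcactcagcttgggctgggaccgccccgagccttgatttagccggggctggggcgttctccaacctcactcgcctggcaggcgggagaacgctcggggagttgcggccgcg
Grb10: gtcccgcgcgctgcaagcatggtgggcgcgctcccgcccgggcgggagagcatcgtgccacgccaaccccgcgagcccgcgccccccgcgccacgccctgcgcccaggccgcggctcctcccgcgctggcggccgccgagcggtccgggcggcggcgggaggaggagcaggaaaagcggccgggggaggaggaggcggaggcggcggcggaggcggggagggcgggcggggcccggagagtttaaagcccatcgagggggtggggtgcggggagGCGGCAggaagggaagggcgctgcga

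Of the 34 members, 27 had a window in the RefSeq table, 42 windows in all. TGCCGC, on either strand, lay in 10 of these 42 windows (23.8%), against 11.6% of all 32851 windows of that length. The members with a match were Grb10, Igf2, Meg3, Mest, Nap1l5, Nnat, Plagl1, Snrpn and Zim1. Windows with at least 2 matches were found in 2 members, Mest and Nap1l5, and made up 1.53% of all windows. GACCC, the core letters of the site bound by ZBTB7A in human gamma-globin promoters, lay on either strand in 24 of the 42 windows (57.1%), against 43.9% of all windows. Windows of 1 gene can overlap, as the pair at Mest does, and the windows of Peg3 and Usp29, which are read in opposite directions, share 263 bases. A match of one motif cannot overlap a match of the other. A match describes the letters only and says nothing of binding or methylation in these embryos.

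To check the labels against the targeted gene, Zbtb7a was measured in each library. It was at 4.46 ± 1.02 TPM in cKO and 9.59 ± 2.32 TPM in WT (SD, n = 5 each). TPM is a transcript level scaled for gene length and to a fixed total per library. The genotypes did not overlap (two-sided exact permutation p = 0.00794, and 0.0167 over the 60 arrangements that keep the litters). In the fit across all genes that is used for the members below, its log2 change was -0.99 ± 0.19 (SE), with a limma adjusted p of 0.615, so the deleted gene itself was not called. Inside litters 1, 3 and 5 its log2 change, cKO minus WT, was -1.29, -0.26 and -1.23, so it was smallest in litter 3. There cKO 4, the only cKO library, was at 5.96 TPM, against 7.2 TPM in WT 3 and 7.46 TPM in WT 4. Markers of cortical tissue were present throughout: none of the 15 apical progenitor markers or the 19 early cortical neuron markers was at 0 in any library. Other tissue was present as well, and unevenly. The 18 mesenchyme markers summed to between 876 and 1500 TPM in the 3 libraries of litter 3, against 575 to 692 TPM in litter 1, with no marker at 0. The 14 erythroid markers in the table summed to between 41900 and 55900 TPM in litter 3, against 17300 to 19800 TPM in litter 1. Early cortical neuron markers ran the other way, at 1150 to 1300 TPM in litter 3, against 1790 to 2360 TPM in litter 1. In bulk tissue, fewer cells of a type and less RNA per cell cannot be told apart. The depth of the libraries is unknown, since TPM does not keep it, and the number of genes above 0 ran from 18991 to 19944.

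Imprinted transcripts made up 0.499% to 0.557% of all TPM in the cKO libraries and 0.486% to 0.573% in the WT libraries. Nnat and Gnas supplied 52.6% to 68.3% of that. Of the 34 members, 29 had at least 1 TPM in at least 5 of the 10 libraries and were tested, 8 of them with a median above 100 TPM, 13 between 10 and 100, and 8 below 10. The other 5 were Kcnq1ot1, the antisense RNA of the Kcnq1 cluster, Phlda2, a growth restraint of the placenta, Rtl1, a retrotransposon-derived gene, Dio3, the enzyme that inactivates thyroid hormone, and Zim1, a zinc finger gene. Their medians lay between 0.045 and 0.565 TPM. Phlda2 was listed at 0 in cKO 4 and WT 3, and no other member was at 0 anywhere. The median ratio of the highest to the lowest library was 2.48 over the 29 tested members and 1.8 over all tested genes that were above 0 in every library.

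**Figure D1:**
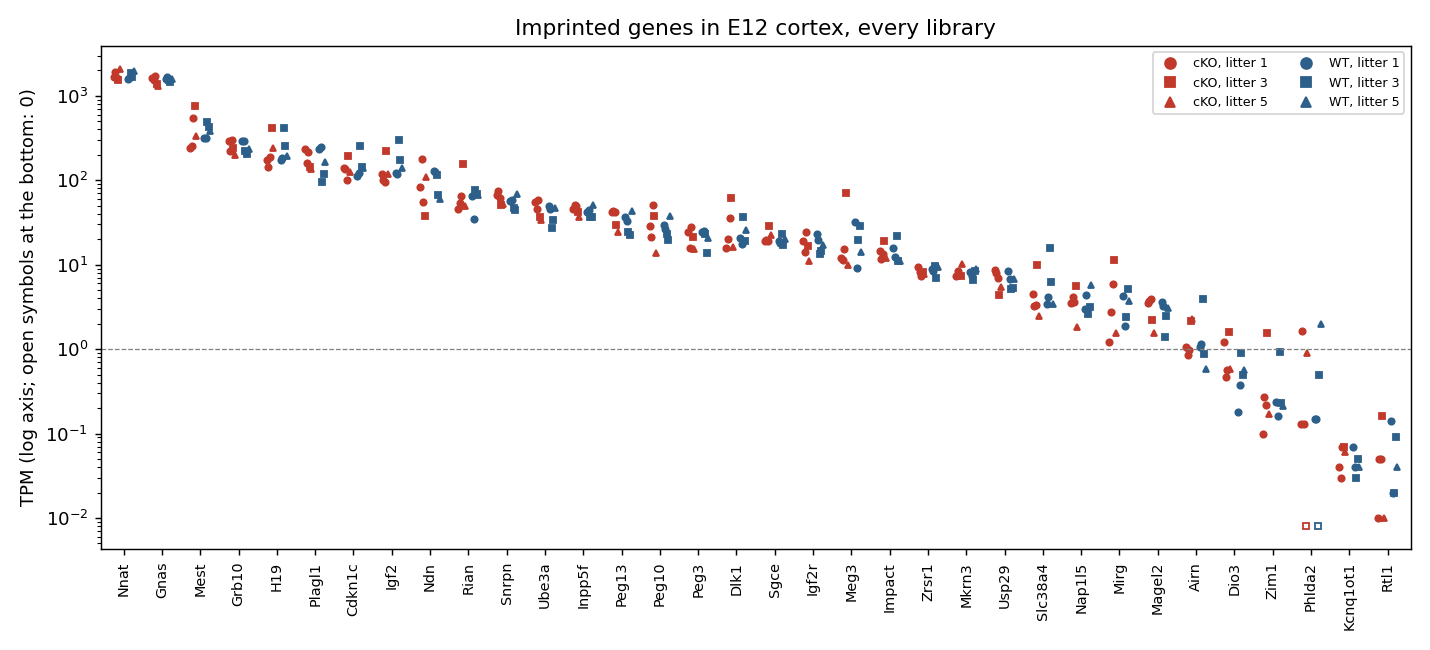
TPM of all 34 imprinted genes on a log axis, 1 symbol per library, with cKO (red) left of WT (blue) in each column, shape giving the litter, and genes ordered by median. Nnat and Gnas stand near the top of the scale, 5 genes lie mostly below the dashed line at 1 TPM, and cKO and WT symbols intermix for every gene.

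The highest levels belonged to a pair of genes of chromosome 2. Nnat (neuronatin, a membrane proteolipid; chr2:157560078-157562522) was at 1695, 1918, 1632, 1553 and 2091 TPM in cKO 1 to 5, against 1568, 1637, 1879.6, 1649.95 and 1992 TPM in WT 1 to 5. Gnas (the stimulatory G protein alpha subunit; chr2:174284320-174346744) was at 1640.4, 1558, 1725, 1378 and 1307 TPM in cKO 1 to 5, against 1568, 1671, 1522, 1447 and 1575 TPM in WT 1 to 5. Neither gene varied by more than 1.35 times between its lowest and highest library, and the genotypes overlapped in both. Their medians lay at the 99.3rd percentile of all tested genes. Mest, Grb10, H19, Plagl1, Cdkn1c and Igf2 followed, at medians of 359, 238, 193, 162, 137 and 122 TPM.

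Deletion of Zbtb7a was not accompanied by a called change in any imprinted gene. None of the 29 tested members was called between cKO and WT, where 5 of all 13833 tested genes were, which is 0.0361% (limma on log2(TPM + 1) with litter as a term, Benjamini-Hochberg adjusted p under 0.05). Zbtb7a was not among the 5. At an unadjusted p under 0.05 there was also no member, against 324 of all genes (2.34%). Log2 changes were positive for 17 members and negative for 12, with a median of 0.03, where all tested genes had a median of -0.01. No member had non-overlapping genotypes, which 0.282% of all tested genes had. The 95% interval of the change lay within 2-fold either way for 26 of the 29 members and for 95.7% of all tested genes. The exceptions were Ndn (a growth-suppressing protein of neurons), with an interval of -1.17 to 0.41 on the log2 scale, Meg3 (-0.74 to 1.01) and Mirg (-0.73 to 1.14).

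The 4 members with the smallest p were Sgce, Rian, Igf2 and Gnas, and each had a limma adjusted p of 1. Sgce (epsilon-sarcoglycan; chr6:4674350-4747207) was at 18.97, 19.6, 19.2, 28.4 and 22.2 TPM in cKO 1 to 5, against 18.99, 17.96, 23.3, 17.3 and 20.1 TPM in WT 1 to 5. The genotypes overlapped, and cKO 4 alone lay above all WT libraries. Its log2 change was 0.19 ± 0.11 (SE), with cKO minus WT at 0.06, 0.48 and 0.14 inside litters 1, 3 and 5. Rian (a non-coding RNA that hosts small nucleolar RNAs and microRNAs; chr12:109603940-109661716) was at 46.1, 53.7, 65.8, 155 and 49.1 TPM in cKO 1 to 5, against 65.5, 34.9, 77.2, 69.3 and 66.4 TPM in WT 1 to 5. Apart from cKO 4, which lay above all others, the cKO libraries stood within the WT range. Its log2 change was 0.31 ± 0.23, with cKO minus WT at 0.19, 1.08 and -0.43 inside litters 1, 3 and 5. Igf2 had a log2 change of -0.17 ± 0.13, with -0.21, -0.07 and -0.21 within litters 1, 3 and 5. For Gnas it was -0.08 ± 0.06.

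Whether the genotype difference itself varied with the litter was tested as an interaction of genotype with litter 1 against litters 3 and 5. No member and no gene was called (0%), and 687 of all genes (4.97%) but no member had an unadjusted limma p under 0.05. No other tool was run on it.

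**Figure D2:**
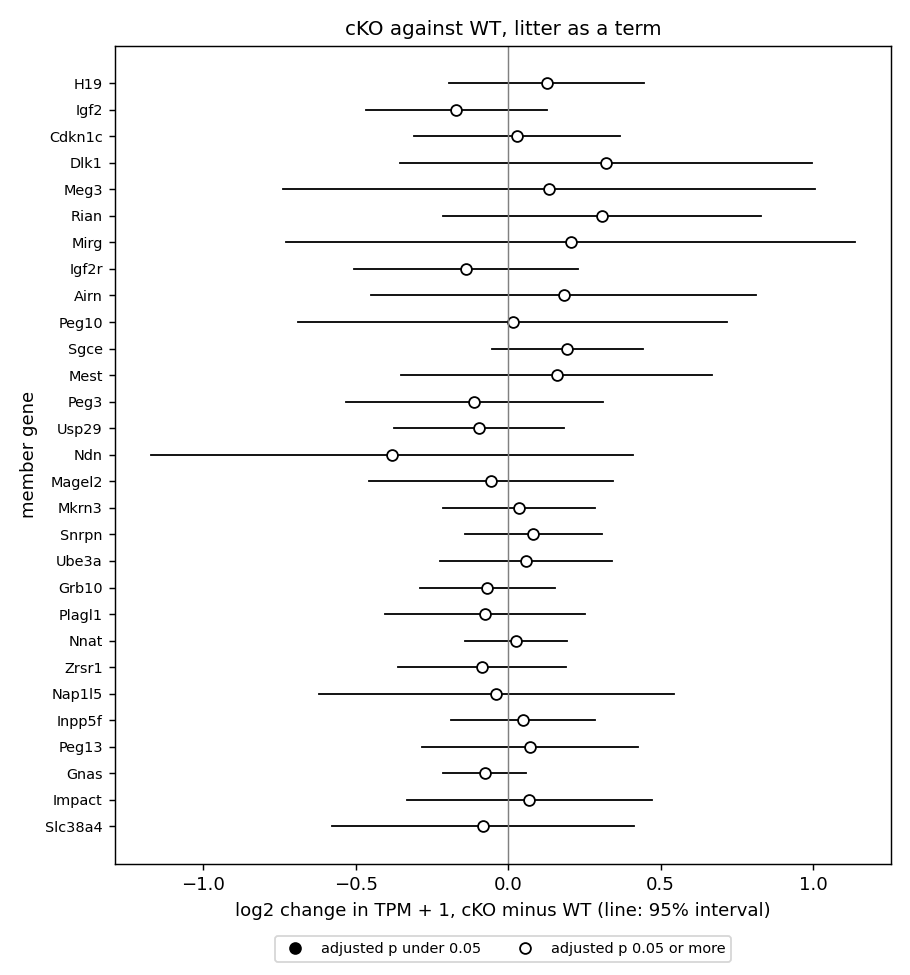
Log2 change in TPM + 1, cKO minus WT, of the 29 tested imprinted genes with 95% intervals from limma, litter as a term. All symbols are open (adjusted p not under 0.05) and every interval spans 0; the widest belong to Meg3, Mirg and Ndn.

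Other genes of the same biology gave no call between cKO and WT either. Their lists were drawn up by name, with earlier results of these data known. None of 32 tested genes of 54 other imprinted genes was called (median log2 change -0.04). Among these, Osbpl5 of the Kcnq1 cluster had a log2 change of -0.32 ± 0.17 and Nespas, antisense to Gnas, of -0.36 ± 0.22. None of 22 tested genes of 27 for imprint maintenance was called (median -0.04). The smallest p there belonged to Daxx, a histone H3.3 chaperone, at -0.14 ± 0.09, and Hells, a chromatin remodeller, at -0.12 ± 0.09. None of 15 partners of the Igf axis was called (median -0.002), Akt1 (-0.10 ± 0.06) and Igfbp5 (-0.16 ± 0.11) coming first by p. Every tested gene of these lists had a limma adjusted p of 1.

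Some imprinted genes differed between litter 3 and litter 1, as did many other genes. In litter 3 against litter 1, 13 of the 29 tested members were called (44.8%), where 31.6% of all tested genes were, from the litter term of the same limma fit. The count of members rested on single libraries: it was 7 (24.1%) without cKO 1, against 24% of all genes, 7 (24.1%) without cKO 4, against 25.8%, 7 (24.1%) without WT 3, against 18.7%, and 8 (27.6%) without WT 2, against 22.7%. The called members were 6 higher in litter 3 (H19, Igf2, Cdkn1c, Rian, Mest and Slc38a4), a direction taken by 5.8% of all tested genes, and 7 lower (Plagl1, Ube3a, Usp29, Magel2, Peg13, Snrpn and Grb10), a direction taken by 25.8%. At an unadjusted p under 0.05 there were 18 members (62.1%) and 43.3% of all genes. The median log2 change was -0.05 over the members and -0.16 over all tested genes. Quantile normalisation moved that all-gene median to -0.01 and the share of higher genes among those called to 45.3%, where it was 18.3% on TPM as deposited. Under it 9 members were higher and 5 lower: Dlk1, Meg3, Sgce and Gnas joined the calls, and Snrpn, Grb10 and Peg13 left them.

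The litters also differed in tissue. In litter 3 against litter 1, 11 of 18 mesenchyme markers and 13 of 14 erythroid markers were called higher, with median log2 changes of 0.73 and 1.38. Called lower were 14 of 19 early cortical neuron markers (median -1.01), 12 of 15 apical progenitor markers (median -0.55) and 10 of 13 intermediate progenitor markers (median -0.74). With the mesenchyme score, the mean log2(TPM + 1) of its markers, as a covariate, no member and 1 gene of 13833 was called between these litters. The log2 changes of 12 of the 13 members kept their sign, 6 of them lying farther from 0 than without the score, and standard errors were 0.801 to 1.94 times those without it. Usp29, for example, was at -0.66 ± 0.28 (limma adjusted p = 0.313), Rian at 1.16 ± 0.52 (0.327 on the same test) and H19 at 0.67 ± 0.28 (0.313 on the same test), while Slc38a4 was at 0.18 ± 0.28 (0.788 on the same test) and Cdkn1c at -0.12 ± 0.14 (0.704 on the same test). With Xist as a covariate, 11 members were called (37.9%, against 30.6% of all genes): Cdkn1c, Rian, Mest, Magel2 and Snrpn left the calls, and Igf2r, Peg3 and Gnas joined them. Litter and tissue content cannot be told apart here.

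**Figure D3:**
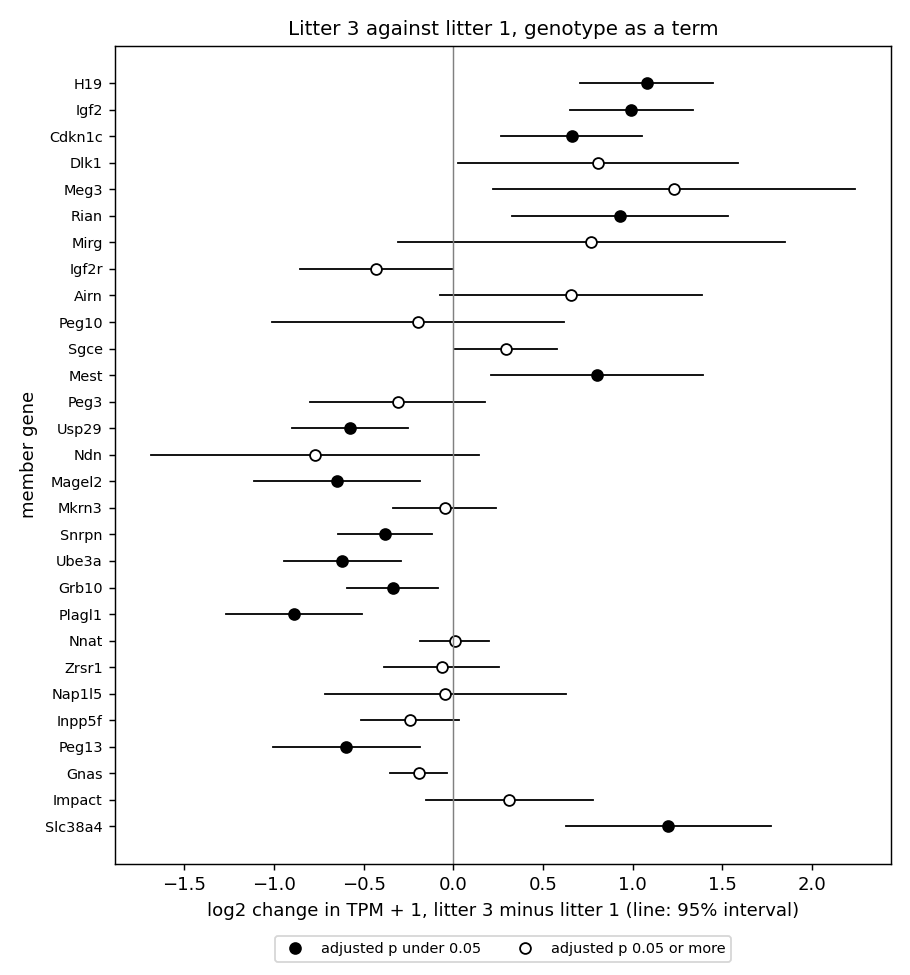
Log2 change in TPM + 1, litter 3 minus litter 1, of the 29 tested imprinted genes with 95% intervals from limma, genotype as a term. Filled symbols mark an adjusted p under 0.05: 6 genes, led by Slc38a4, H19 and Igf2, stand right of 0 and 7, led by Plagl1, stand left of it.

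Of the members on distal chromosome 7, H19, Igf2 and Cdkn1c were higher in litter 3. The untested Kcnq1ot1 and Phlda2 of the same region were not. Kcnq1ot1 averaged 0.05 TPM in both litters, and Phlda2 averaged 0.163 TPM in litter 3 and 0.442 TPM in litter 1. H19, the maternally expressed non-coding RNA (chr7:142575529-142578143), was at 416, 419 and 256 TPM in cKO 4, WT 3 and WT 4 of litter 3, against 174, 143, 190.5, 172 and 182 TPM in cKO 1, cKO 2, cKO 3, WT 1 and WT 2 of litter 1. The litters did not overlap, and WT 4 was the lowest of litter 3. Its log2 change was 1.08 ± 0.17 (SE, limma adjusted p = 0.00343). Igf2, the insulin-like growth factor expressed from the paternal copy beside it (chr7:142650766-142666816), was at 220.2, 304 and 176 TPM in litter 3, against 118, 99.5, 96.3, 124 and 118 TPM in litter 1, in the same order of libraries. Again the litters did not overlap. The log2 change was 0.99 ± 0.15 (limma adjusted p = 0.00345), and both genes passed without any 1 library. In TPM, a level per length, H19 exceeded Igf2 in 10 of 10 libraries, by 1.38 to 2.03 times. A gene model annotated as Gm49394 shares 62.8% of the exon bases of Igf2 on the same strand and had a median of 0 TPM, so the assignment of shared reads between them is uncertain.

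Cdkn1c, the maternally expressed inhibitor of cyclin-dependent kinases (chr7:143458339-143461050), was at 196, 253 and 143 TPM in cKO 4, WT 3 and WT 4 of litter 3, against 141, 136, 102, 113 and 121 TPM in litter 1. WT 4 lay just above the highest library of litter 1. The log2 change was 0.66 ± 0.18 (limma adjusted p = 0.0193), with adjusted p of 0.0702 at most when 1 library was left out, the call ending without cKO 4, WT 1 or WT 3. Slc38a4, an amino acid transporter (chr15:96994820-97055956), was at 9.96, 15.6 and 6.21 TPM in cKO 4, WT 3 and WT 4, against 4.55, 3.26, 3.30, 3.41 and 4.10 TPM in litter 1. The lowest library of litter 3 lay above every library of litter 1. Its log2 change was 1.20 ± 0.26 (limma adjusted p = 0.00827), and it passed without any 1 library. Mest, the mesoderm-specific transcript, which encodes a hydrolase (chr6:30723547-30748465), was at 757, 496 and 425 TPM in litter 3, against 242, 252, 541, 316 and 321 TPM in litter 1, with cKO 3 of litter 1 above WT 3 and WT 4. The change of 0.80 ± 0.26 had a limma adjusted p of 0.0429, and the call ended without any 1 of cKO 1, cKO 2, cKO 4, WT 1, WT 2 or WT 3. Exons of Copg2 on the other strand overlap 23.1% of those of Mest, and no source used here says whether strand was used in counting, so reads there cannot be told apart.

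Among the genes lower in litter 3, Plagl1, a zinc finger regulator of other imprinted genes in the mouse (chr10:13060504-13131694), was at 144, 95.3 and 119.6 TPM in cKO 4, WT 3 and WT 4, against 232, 159.6, 216, 237 and 249 TPM in litter 1. The litters did not overlap. Its log2 change was -0.89 ± 0.17 (limma adjusted p = 0.00569). Ube3a, the ubiquitin ligase lost in Angelman syndrome (chr7:59228750-59311536), was at 36.5, 27.0 and 33.8 TPM in litter 3, against 56.0, 45.3, 57.7, 49.1 and 45.4 TPM in litter 1. Here too there was no overlap, with a change of -0.62 ± 0.15 (limma adjusted p = 0.0119), and Plagl1 and Ube3a both passed without any 1 library. Usp29, a ubiquitin protease gene read away from Peg3 (chr7:6730578-6967219), was at 4.34, 5.23 and 5.28 TPM in litter 3, against 8.55, 8.05, 6.93, 8.35 and 6.73 TPM in litter 1. The litters did not overlap, the change was -0.58 ± 0.15 (limma adjusted p = 0.0154), and the call ended only without cKO 4 (adjusted p = 0.0791).

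Peg3 itself, a zinc finger gene whose promoter window shares most of its bases with that of Usp29, was not called, at -0.31 ± 0.22 (limma adjusted p = 0.31), and whether the pair differed was not tested. All 5 genes of the Prader-Willi and Angelman region had negative log2 changes in litter 3, and 3 were called lower. Over all tested genes 34.1% had positive changes and 25.8% were called lower, so this direction was the more common one there too. Magel2, a partner of ubiquitin ligases, had a mean of 2.01 ± 0.558 TPM in litter 3 (SD, n = 3) and 3.61 ± 0.25 TPM in litter 1 (SD, n = 5). Snrpn, a spliceosome protein, averaged 47.4 ± 3.49 TPM in litter 3 and 63.2 ± 7.09 TPM in litter 1. Ndn and Mkrn3, a RING finger gene, were not called, at -0.77 ± 0.41 and -0.05 ± 0.13. The table also held a second row named Snrpn, whose identifier GENCODE M21 calls Gm38393. It shares 27.3% of the exon bases of Snrpn, with a median of 3.21 TPM, and was not counted as a member. Peg13, a non-coding RNA inside Trappc9, averaged 25.5 ± 3.89 TPM in litter 3 and 39.5 ± 4.46 TPM in litter 1. Grb10, an adaptor that restrains insulin-like growth factor signals, averaged 222 ± 16.7 TPM in litter 3 and 279 ± 33.4 TPM in litter 1, and cKO 4 and WT 3 lay within the range of litter 1. The calls of Magel2, Snrpn, Peg13 and Grb10 each ended when 1 library was left out, in 5 to 8 of the 10 ways.

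Over all 29 tested members, litter 3 and litter 1 did not overlap for 12, against 37.4% of all tested genes. In 5 of these litter 3 was higher (7.34% of all genes) and in 7 it was lower (30.1%). By parental copy, 3 of 6 tested maternally expressed members were called higher and none lower. These were H19, Cdkn1c and Rian, and the calls of Cdkn1c and Rian did not hold without some single libraries. Of 20 tested paternally expressed members 3 were called higher and 5 lower. Of 3 tested members whose expressed copy depends on the tissue or promoter, 2 were called lower, Ube3a and Grb10. Over all tested genes 5.8% were called higher and 25.8% lower. The difference between the groups by parental copy was not tested. In litter 5, which had 1 library of each genotype, no member was called against litter 1, where 0.0217% of all genes were (3 genes). At an unadjusted limma p under 0.05 there were 5 members (17.2%), against 19.2% of all genes. H19, for example, averaged 220 TPM in litter 5 and 172 TPM in litter 1, a log2 change of 0.36 ± 0.19 (limma adjusted p = 0.308). For Plagl1 it was -0.54 ± 0.19 (limma adjusted p = 0.193).

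Other genes of the imprinting machinery were lower in litter 3. Of 22 tested genes of imprint maintenance, 16 were called lower and none higher (median -0.55). They included Trim28, the partner of ZFP57, at -0.54 ± 0.09 (limma adjusted p = 0.00426), the maintenance methyltransferase Dnmt1 at -0.89 ± 0.16 (0.00474 on the same test) and Uhrf1, which brings Dnmt1 to replicated DNA, at -0.68 ± 0.13 (0.00612 on the same test). Of 15 genes of the Igf axis, 2 were called higher, Igf1 at 1.37 ± 0.35 and the binding protein Igfbp2 at 0.50 ± 0.12. Another 8 were called lower, among them the receptor Igf1r at -0.86 ± 0.14 and Igfbp5 at -0.86 ± 0.12. Of 32 tested other imprinted genes, 1 was called higher (Tspan32, a tetraspanin, 1.30 ± 0.21) and 10 lower, among them Ago2, a core protein of RNA silencing, at -0.999 ± 0.216. The lower direction was shared by 25.8% of all tested genes, and the tissue markers given above moved with it; their part in these counts was not tested.

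The Dlk1-Dio3 cluster of chromosome 12 has 6 members here. They are the paternally expressed Dlk1, Rtl1 and Dio3 and the maternally expressed non-coding RNAs Meg3, Rian and Mirg. All 6 were highest in cKO 4. So were Mest, Sgce and Zim1, which lie outside the cluster. The share of all tested genes that were highest in cKO 4 was not computed, so this cannot be read as particular to the cluster. Dlk1, a transmembrane protein related to Notch ligands (chr12:109452823-109463336), was at 15.9, 20.3, 35.3, 62.1 and 16.4 TPM in cKO 1 to 5, against 20.9, 17.5, 37.1, 19.1 and 25.5 TPM in WT 1 to 5. Meg3 (chr12:109541001-109571726) was at 12.1, 11.5, 15.3, 70.8 and 9.89 TPM in cKO 1 to 5, against 31.8, 9.12, 19.7, 28.8 and 14.0 TPM in WT 1 to 5. After cKO 4, WT 1 and WT 4 were the highest for Meg3. Mirg, the farthest downstream of the 3 non-coding RNAs (chr12:109729764-109749460), was at 1.22, 2.72, 5.98, 11.4 and 1.55 TPM in cKO 1 to 5, against 4.30, 1.90, 2.39, 5.18 and 3.72 TPM in WT 1 to 5. Dio3 reached 1.58 TPM in cKO 4, against 1.23 TPM in cKO 1, and Rtl1 reached 0.16 TPM in cKO 4, against 0.14 TPM in WT 1. Neither gene was tested, and their medians were 0.565 and 0.045 TPM.

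All 4 tested genes of the cluster had positive log2 changes in litter 3 against litter 1, and Rian alone was called (0.93 ± 0.27, limma adjusted p = 0.027). Meg3 was at 1.23 ± 0.45 (limma adjusted p = 0.0624), Dlk1 at 0.81 ± 0.35 (0.105 on the same test) and Mirg at 0.77 ± 0.48 (0.254 on the same test). The call of Rian ended without cKO 4, where its change was 0.49 (adjusted p = 0.209), and also without cKO 1, WT 2 or WT 3. Between genotypes, leaving out cKO 4 turned the change of Meg3 to -0.41 and that of Mirg to -0.28, against 0.13 and 0.21 with all libraries, none of them called. Members of the cluster did not keep 1 ratio over the libraries: the maternal Meg3 over the paternal Dlk1, both per length, ran from 0.433 to 1.52, and Rian over Meg3, both maternal, from 2.06 to 4.96. In cKO 4 the mesenchyme score was 4.61, above all litter 1 libraries (3.82 to 4.17) and below WT 3 (5.30), and the ventral telencephalon score was 3.12, within the range of 1.00 to 4.04 over the 10 libraries. WT 3 held the highest level of Igf2, H19, Cdkn1c, Slc38a4, Airn, Impact and Zrsr1. The part of tissue content in the levels of single libraries was not tested.

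**Figure D4:**
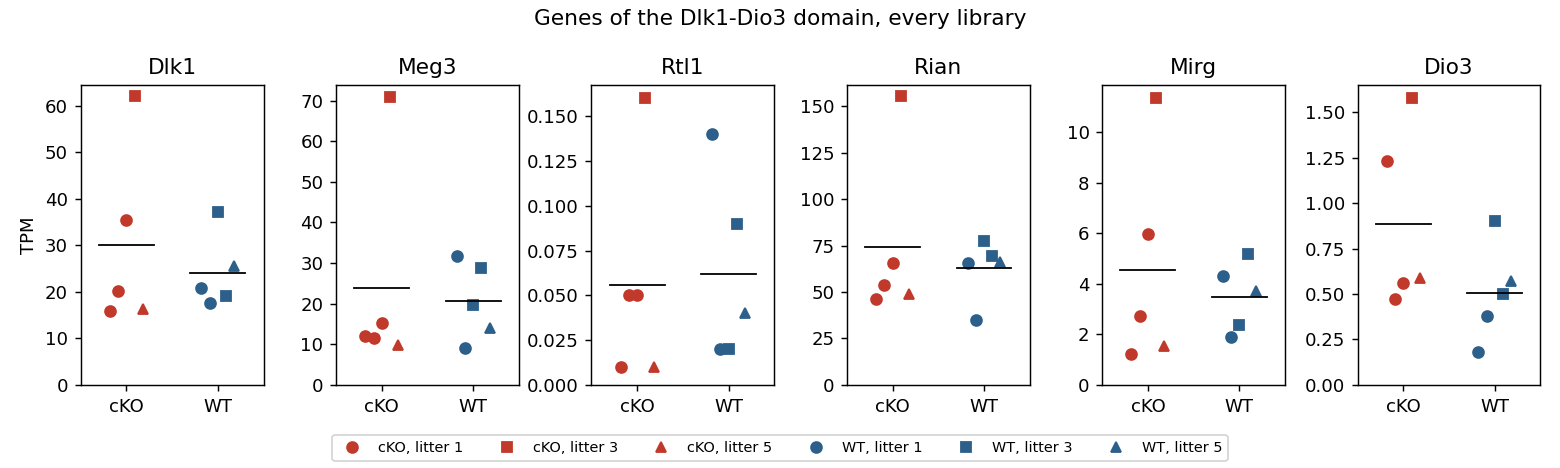
TPM of the 6 genes of the Dlk1-Dio3 cluster in each library, cKO left of WT, each panel with its own axis from 0, shape giving the litter and the black line the mean of the 5 libraries. The square of cKO 4 is the highest symbol in all 6 panels.

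How the members went with tissue markers was tested as a slope on each marker score, with litter and genotype kept in the limma model, so that the slope rests on differences within litters. No member was called for any of the 4 scores. All tested genes gave 0% for mesenchyme, 0.00724% for early cortical neurons, 0.0651% for ventral telencephalon and 0.0362% for hem and choroid plexus. At an unadjusted p under 0.05, 4 members went up with mesenchyme (13.8%, against 5.74% of all genes). They were Cdkn1c at 1.08 ± 0.16 log2 units per unit of score (limma adjusted p = 0.498), Slc38a4 at 1.42 ± 0.33, Igf2 at 0.88 ± 0.19 and Airn, the antisense RNA of Igf2r, at 1.37 ± 0.58. Early cortical neuron markers had 3 such members (against 9.16% of all genes), Snrpn, Inpp5f (a lipid phosphatase) and Peg13, all positive, and ventral telencephalon markers had 5 (against 7.62% of all genes), Dlk1, Peg10, Snrpn, Inpp5f and Peg13, all positive. Hem and choroid plexus markers had H19, positive, and Snrpn, negative (6.9%, against 4.54% of all genes). The mesenchyme score spread most within litter 3, at 5.30 in WT 3, 4.61 in cKO 4 and 4.51 in WT 4. It was 3.82 to 4.17 in litter 1, and 3.88 and 4.12 in litter 5. WT 3 was also the highest library for each of the 4 members that went up with mesenchyme. In litter 5 the early cortical neuron score was 5.82 in WT 5 and 4.98 in cKO 5. The ventral telencephalon score was 4.04 and 1.00 in the same libraries. Peg13 was at 43.4 and 24.5 TPM there, Inpp5f at 51.7 and 37.2 TPM, and Snrpn at 68.8 and 52.9 TPM. Both scores share this pair, so slopes of 1 gene on both are not separate evidence.

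Without litter in the model, the slope also takes in the differences between litters given above. Then 4 members were called for mesenchyme, all positive, against 1.35% of all genes: Slc38a4 at 1.67 ± 0.17, Igf2 at 1.15 ± 0.14, H19 at 1.10 ± 0.22 and Cdkn1c at 0.91 ± 0.10 (limma adjusted p from 0.00287 to 0.0409). For early cortical neurons 11 members were called (37.9%), against 32.6% of all genes. Of these, 8 were positive (Usp29, Magel2, Snrpn, Ube3a, Plagl1, Inpp5f, Peg13 and Gnas), where 26.8% of all genes were, and 3 negative (H19, Igf2 and Airn), where 5.81% were. These slopes share their libraries with the litter comparison and are not separate evidence of it.

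**Figure D5:**
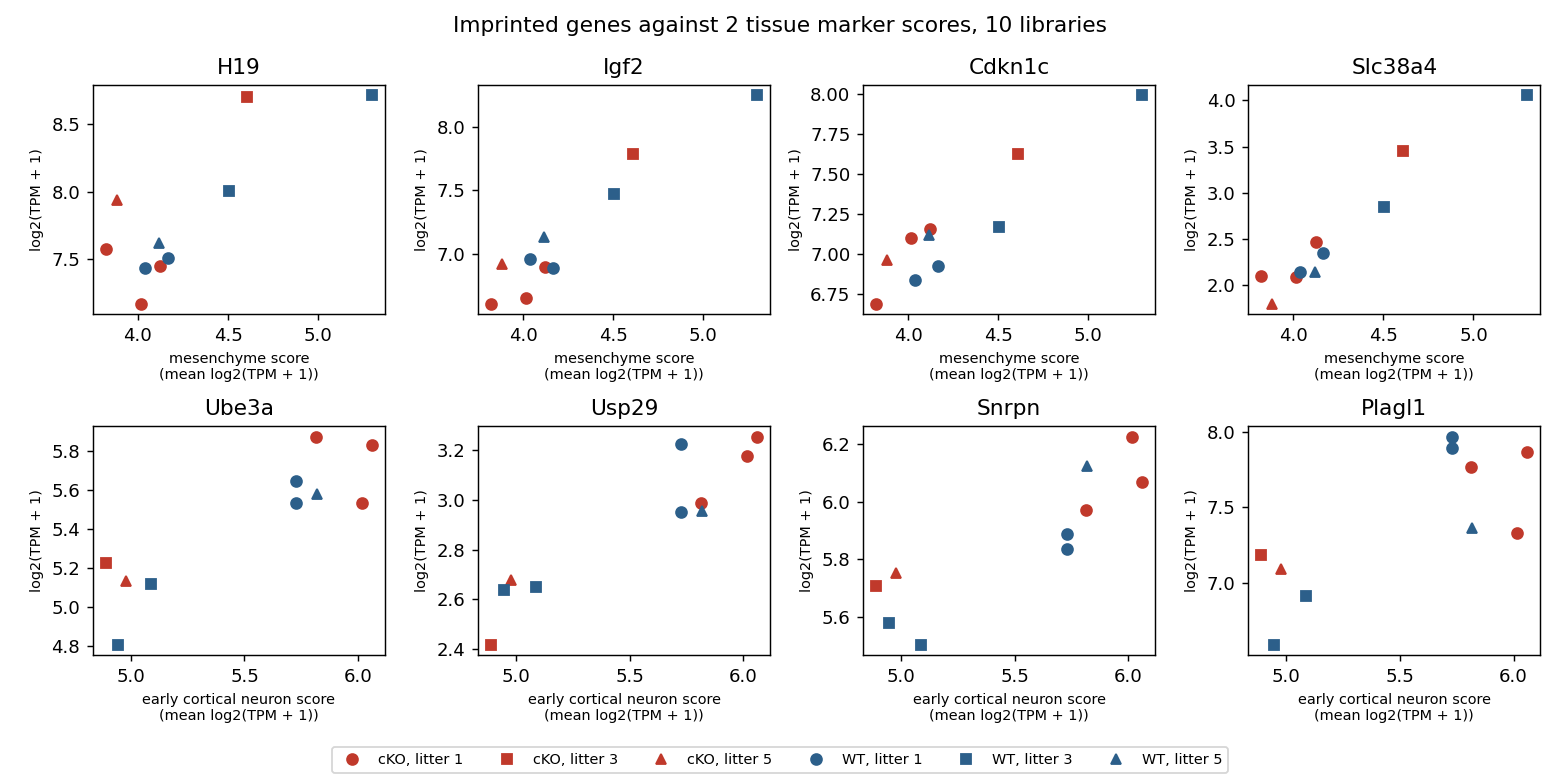
Log2(TPM + 1) of 4 imprinted genes against the mesenchyme score (top) and of 4 against the early cortical neuron score (bottom), 1 symbol per library, red for cKO, blue for WT, shape for litter. The 3 squares of litter 3 have the highest mesenchyme scores (4.51 to 5.30), and with the triangle of cKO 5 they have the lowest neuron scores (4.89 to 5.09).

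The remaining members were not called between genotypes or between litters. Igf2r, the receptor that clears Igf2, was at 11.1 to 24.2 TPM in cKO libraries and 13.3 to 23.2 TPM in WT libraries. Peg10, a retrotransposon-derived gene beside Sgce, ran from 13.85 to 50.6 TPM in cKO libraries and from 19.6 to 37.7 TPM in WT libraries. Ndn had the highest ratio of highest to lowest library among members above 50 TPM in the median, 4.71, at 37.5 to 177 TPM in cKO libraries and 60.05 to 127 TPM in WT libraries. Impact, a regulator of the kinase GCN2, ran from 11.6 to 19.4 TPM in cKO libraries and from 10.9 to 21.8 TPM in WT libraries. Zrsr1 and Nap1l5, which lie within introns of other genes, had medians of 8.34 and 3.54 TPM, and Inpp5f had one of 43.2 TPM. Zrsr1 lies on the other strand of Commd1, which had a median of 109 TPM, and 9.17% of the exon bases of Zrsr1 overlap those of Commd1.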

How the data were processed

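RNA was sequenced from the cortex of 10 embryos. The authors deposited TPM, scaled to a total of 1000000 per library and given to 2 decimals, for 24814 genes. Per the submitters' processing notes, cutadapt, featureCounts, DESeq2 and the build mm10 were used; the aligner and the tool behind the TPM are not given in the sources used here. The authors' deposited comparison of 7 genes holds a log2 fold change, its standard error, a test score and p-values, and 0 members; it was not used. Of the columns of the table, 7 carry no library name, and 5 of these hold 4 values each; none was used. The series description counts fewer cortices and litters than the sample labels, which were followed.

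Members were matched by symbol (33) or by identifier (1, Peg13). Positions and overlaps come from GENCODE M21 on GRCm38, near-identical copies from blastn 2.17.0 at 90% identity over 300 bases or more, and promoters from RefSeq. The 13833 genes that reached 1 TPM in 5 or more libraries were tested on log2(TPM + 1), a scale that understates changes of low genes, with limma 3.58.1 in R 4.3.3, litter and genotype as terms, trended empirical Bayes, 6 residual degrees of freedom, two-sided p-values and Benjamini-Hochberg adjustment over all tested genes. The filter was set over both genotypes together, so a member can pass through 1 of them. Marker scores are means over the tested markers, which were left out of the tests on their own score. TPM keeps no depth, so counts were not modelled, and precision rests on the spread between animals of 3 litters. The fit was also run on simulated data with independent noise in each gene. Such data lack the spread that genes share through tissue content, and no conclusion is drawn from them.

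Members and lists were chosen with earlier results of these data known. Values in every library are given for called members (the 8 smallest p), the 4 smallest p in cKO against WT and in litter 3 against litter 1, the 3 highest medians, the 3 largest spreads, and H19 and Igf2; Dlk1 was added after its values were seen. From the other lists, those with the smallest p in cKO against WT are named. Trim28, Igf1r and Tspan32, named with litter 3 values, fall outside that rule. Dnmt1, Uhrf1, Ago2, Igf1 and Igfbp2 were picked after their values were seen. Alternatives covered the pseudocount, the filter, quantile normalisation, array weights, each library left out, the litter term, a replicate block, and Xist or the mesenchyme score as a covariate.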

Additional observations from a re-analysis of the deposited data

Results flagged for a closer look

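In the 68 groups of 5 libraries examined (34 genes in each genotype), 8 single values stood apart from the other 4 of their genotype by Dixon's criterion at the 95% level. In independent groups without litter differences, chance alone gives about 1 in 20, which is 3.4 here. In cKO 4 these were Igf2 at 220.2 TPM (the other cKO libraries 96.3 to 120.1 TPM), Meg3 at 70.8 TPM (9.89 to 15.3 TPM), Rtl1 at 0.16 TPM (0.01 to 0.05 TPM) and Zim1 at 1.57 TPM (0.10 to 0.27 TPM). In WT 3 they were Cdkn1c at 253 TPM (the other WT libraries 113 to 143 TPM), Airn at 3.92 TPM (0.58 to 1.15 TPM) and Zim1 at 0.92 TPM (0.16 to 0.24 TPM). Both libraries are from litter 3, and they had the highest mesenchyme scores, 4.61 in cKO 4 and 5.30 in WT 3; the part of this in the values was not tested. The last was Rian in WT 2, low at 34.9 TPM, against 65.5 to 77.2 TPM in the other WT libraries. Over all 10 libraries the medians of Rtl1 and Zim1 were 0.045 and 0.225 TPM, and Rtl1 was at 0.14 TPM in WT 1. The groups mix litters, cKO 4 is the only cKO library of litter 3, and members of a cluster can move together. The rate of values standing apart was not computed over all tested genes. No excess among the imprinted genes can therefore be read from the count.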

How the results depend on the processing

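Between cKO and WT no member was called under any of the 20 alternatives, and the genes called numbered 3 to 5 with 1 library left out, 3 with a minimum of 5 TPM in the filter, and 3 when Xist or the mesenchyme score was a covariate. Same-numbered libraries of the 2 genotypes had correlations of deviations between -0.291 and 0.303 and none matched its own number best, so they share only a number; a replicate block gave 2 genes without the litter term and 3 beside it, and no member. Small uncalled changes turned sign. With 1 library left out the log2 changes ran from -0.065 to 0.121 for Cdkn1c, -0.276 to 0.017 for Plagl1, -0.015 to 0.107 for Nnat, -0.061 to 0.267 for Mest, -0.022 to 0.195 for Ube3a, -0.413 to 0.589 for Meg3, -0.276 to 0.499 for Mirg and -0.227 to 0.047 for Slc38a4. Array weights gave 0.037 for Slc38a4 and 0.007 for Usp29. Without the litter term, with or without the replicate block, H19 was at -0.089, Plagl1 at 0.101, Usp29 at 0.019, Cdkn1c at -0.103, Mest at -0.001 and Meg3 at -0.112. The replicate block beside litter gave 0.084 for Slc38a4, -0.04 for Ube3a, -0.033 for Mest, -0.054 for Meg3 and -0.196 for Mirg. Xist gave -0.093 for H19, -0.06 for Ube3a, -0.095 for Cdkn1c and -0.135 for Mest. The mesenchyme score gave 0.188 for Slc38a4, -0.012 for Ube3a, -0.116 for Meg3 and -0.158 for Mirg.

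In litter 3 against litter 1, 7 to 13 members (24.1% to 44.8%) were called with 1 library left out. Genes called then numbered 2585 to 4524 (18.7% to 32.7%), the fewest without WT 3. With Xist as a covariate 11 members and 4234 genes were called. With no filter, where more genes were tested, 6 members were called (17.6%, against 13.2% of all genes). Array weights gave 15 members (51.7%, against 38.2%), and a filter of at least 5 TPM gave 11 (45.8%, against 39.7%). With the mesenchyme score 0 members and 1 gene were called, the members' median was -0.206, Cdkn1c was at -0.118 and Nnat at -0.206. Nnat was at -0.093 after quantile normalisation and between -0.069 and 0.127 with 1 library left out. In litter 5 against litter 1, no filter gave 22 genes, and leaving out 1 library gave 0 to 1084 genes and 0 to 1 member, the most without WT 5, where cKO 5 alone stood for the litter and was assumed to vary like the others. The interaction gave 1 gene with no filter and 0 to 21 with 1 library left out, the most without cKO 4, and no member. Slopes without the litter term called 4 members for mesenchyme and 11 for early cortical neurons. The cause of these shifts was not tested. Depth is unknown, so how far it limits the genes below 1 TPM cannot be given.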
